A study of Mus musculus with 21 samples.

Results

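Mouse bone marrow cells that carry 1 of 2 single lesions found in myeloid neoplasms, the activating Jak2V617F mutation or loss of Asxl1, were compared directly with each other by RNA-seq. The comparison set 3 Jak2V617F libraries against 2 Asxl1-/- libraries and was read over the genes of chromosomes 1 to 19, which are 50225 of the 54532 genes in the count table. All mice were of the C57BL/6 strain, and marrow flushed from femur and tibia was enriched for the c-kit receptor with CD117 beads after red cell lysis. The groups were Jak2V617F (n = 3), Asxl1-/- (n = 2), wild type (WT, n = 3), which gives the background level of each gene, and the double mutant Asxl1-/-Jak2V617F (n = 3), which entered the fit only for its estimate of the spread. No treatment is given for these groups, and the sources used here do not give the alleles' design, any Cre driver, the age of the mice or whether a library pooled animals. Nothing in the labels says that libraries of a group came from separate mice, so the p-values measure the spread between these libraries, which may be partly technical.

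JAK2 is the tyrosine kinase that sits on the receptors for erythropoietin and other blood cell growth factors and passes their signal to STAT transcription factors. The V617F change makes it active without ligand, and it is the typical lesion of polycythaemia vera and related myeloproliferative neoplasms. ASXL1 is a chromatin protein that works with the BAP1 deubiquitinase on ubiquitinated histone H2A and has been linked to Polycomb repressive complex 2. Its truncating mutations are found across myeloid neoplasms and in clonal haematopoiesis. c-kit marks stem cells and the early progenitors of the red cell, granulocyte, monocyte, mast cell and megakaryocyte lineages.

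The 5 libraries held 17786701 to 19196283 counts, and replicates of each genotype differed by more than counting noise. The c-kit gene itself, Kit, was at 338, 232 and 298 CPM (read counts scaled to the library's size with edgeR's TMM factors) in Jak2V617F and at 265 and 249 in Asxl1-/-, with no difference past the threshold (log2 difference 0.17 ± 0.15 SE, adjusted p = 0.361, edgeR quasi-likelihood test with Benjamini-Hochberg adjustment over all genes tested). On the first principal component of all RNA libraries, which held 52.2% of the variance, the Jak2V617F libraries lay at 97.2 to 104 and every other library lay below 0. Reads on 4 Y-linked genes were present in Jak2V617F 2 and in both Asxl1-/- libraries and absent from Jak2V617F 1 and 3, so the sex of the mice is uneven between the genotypes. Counts from a fit without Jak2V617F 1 and 3 are given beside many of the results, as counts among libraries with Y-linked reads. Of the compared groups, that fit keeps only libraries with Y-linked reads. The WT and double mutant libraries, which have no such reads, stay in it for the estimate of the spread. Such a comparison rests on 1 Jak2V617F library. A fit with a term for sex rests on the same library, since only Jak2V617F holds libraries both with and without Y-linked reads. The results of these settings are therefore not separate checks.

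The lesions were read first. Asxl1 (chr2:153345829-153404007, plus strand) was at 196, 142 and 132 CPM in Jak2V617F, at 89 and 97 in Asxl1-/- and at 161 to 164 in WT. The groups did not overlap, which was so for 69.5% of all autosomal genes tested, and the level was 1.68-fold higher in Jak2V617F (log2 difference 0.75 ± 0.14, adjusted p = 0.00106). Counts cover the whole gene, and which exons or cells the remaining reads in Asxl1-/- come from was not tested. Jak2 (chr19:29251828-29313080, plus strand) was at 129, 121 and 127 CPM in Jak2V617F, at 99.8 and 103 in Asxl1-/- and at 71.7 to 83.4 in WT. Its log2 difference of 0.31 ± 0.09 passed the threshold (adjusted p = 0.0114) but not without Asxl1-/- 1 (0.0894), without Asxl1-/- 2 (0.055), with a term for sex in the fit (0.11) or among libraries with Y-linked reads (0.13). A gene-level count does not show the V617F base itself.

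Of 15718 autosomal genes tested, 3523 (22.4%) were higher in Jak2V617F and 4079 (26%) were lower at an adjusted p under 0.05, which is 48.4% called in all. Differences were large: 1663 genes (10.6%) were at least 2-fold higher and 2445 (15.6%) at least 2-fold lower, and 398 (2.53%) and 529 (3.37%) passed 8-fold. The median log2 difference over all autosomal genes tested was 0.006. Because the background of called genes is this high, each gene list below is read against these shares and against that median. In bulk RNA, fewer cells of a type and less RNA of a gene per cell cannot be told apart.

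**Figure D1:**
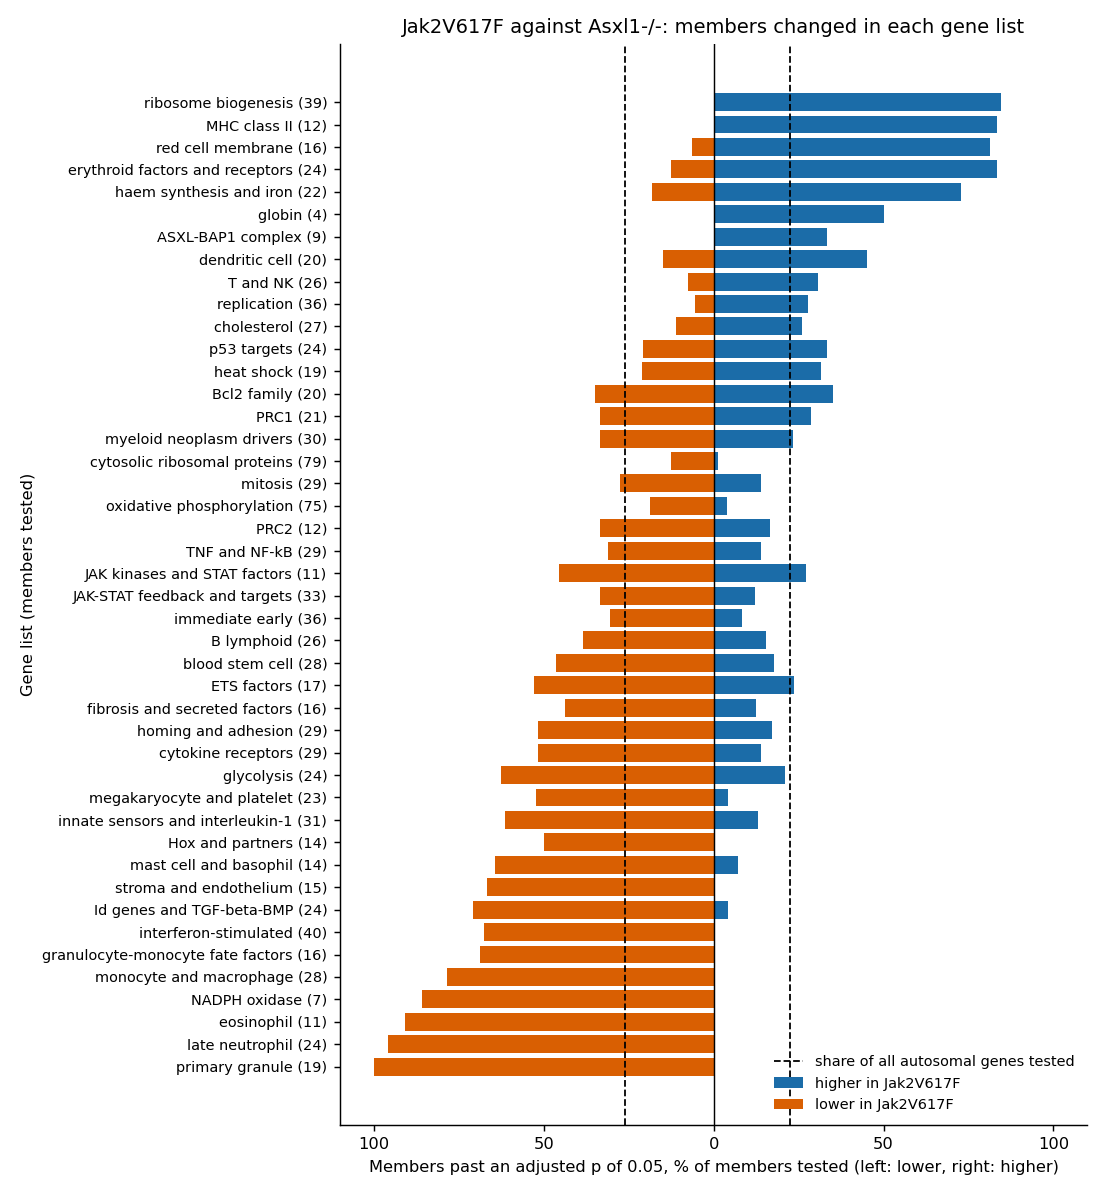
Share of the tested members of each of 44 gene lists that passed an adjusted p of 0.05 in Jak2V617F against Asxl1-/-, drawn to the right where higher in Jak2V617F and to the left where lower; the number of members tested is in brackets and the dashed lines mark the shares over all autosomal genes tested (22.4% and 26%). The primary granule list reaches 19 of 19 lower, and the ribosome biogenesis list 33 of 39 higher.

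The neutrophil granule genes and the red cell genes moved in opposite directions, and the promoters of 4 of them show letters that factors of each lineage are known to bind. The 250 bases before RefSeq's start site are printed 5′ to 3′ from RefSeq's sequence on GRCm38.p6. That site can differ from the gene start in the count table. For Mpo, the gene span given further below begins inside the printed window. Capitals mark matches on either strand to AGATAA or TGATAA (the GATA letters), CCACCC (the CACC box read by Krüppel-like factors), AGGAAG (an ETS core such as that of PU.1) and TTGCNNAA (the C/EBP letters). Kel and Rhag encode red cell surface proteins and were higher in Jak2V617F, and Mpo and Ngp encode neutrophil granule proteins and were lower.
Kel (chr6:41704326-41704575, minus strand): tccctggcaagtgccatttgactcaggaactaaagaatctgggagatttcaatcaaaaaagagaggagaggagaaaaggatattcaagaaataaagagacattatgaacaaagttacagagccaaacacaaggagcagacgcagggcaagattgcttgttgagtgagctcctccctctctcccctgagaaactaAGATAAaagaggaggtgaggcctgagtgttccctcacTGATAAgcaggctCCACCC
Rhag (chr17:40810899-40811148, plus strand): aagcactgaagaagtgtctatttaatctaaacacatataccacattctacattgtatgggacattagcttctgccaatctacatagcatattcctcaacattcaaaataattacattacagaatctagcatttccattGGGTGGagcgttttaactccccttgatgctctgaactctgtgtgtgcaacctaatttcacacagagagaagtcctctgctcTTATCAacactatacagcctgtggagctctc
Mpo (chr11:87793534-87793783, plus strand): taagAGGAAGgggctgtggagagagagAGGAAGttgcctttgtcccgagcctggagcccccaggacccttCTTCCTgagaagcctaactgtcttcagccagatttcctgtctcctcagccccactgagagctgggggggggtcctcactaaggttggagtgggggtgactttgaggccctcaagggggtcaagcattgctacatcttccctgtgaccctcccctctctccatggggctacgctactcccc
Ngp (chr9:110419558-110419807, plus strand): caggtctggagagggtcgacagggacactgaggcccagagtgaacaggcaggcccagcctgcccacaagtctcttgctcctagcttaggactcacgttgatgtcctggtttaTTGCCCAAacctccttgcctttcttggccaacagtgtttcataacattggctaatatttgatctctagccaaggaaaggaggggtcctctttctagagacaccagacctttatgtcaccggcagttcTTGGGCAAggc

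The GATA letters lie 56 and 19 bases before the start site of Kel and 31 bases before that of Rhag. Over 9509 promoters matched by symbol, 9.04% held the GATA letters, 32.6% the CACC box, 28.3% the ETS core and 7.45% the C/EBP letters. The GATA letters were in 7 of 16 matched promoters of the erythroid list and in 4 of 9 of the red cell membrane list, and also in 5 of 20 late neutrophil promoters and 0 of 13 primary granule promoters. The CACC box was in 8 of 13 primary granule promoters, against 7 of 16 erythroid and 4 of 9 membrane promoters. The ETS core was in 9 of 13 primary granule and 12 of 20 late neutrophil promoters, against 3 of 16 erythroid and 1 of 9 membrane promoters. For the C/EBP letters these counts were 2 of 13, 9 of 20, 2 of 16 and 0 of 9. Over all genes at least 2-fold higher in Jak2V617F the GATA share was 10.8%, and over those at least 2-fold lower it was 10.5%. A match describes these letters only and was not tested as a binding site. A STAT palindrome, TTCNNNGAA, was in 4.56% of promoters of genes at least 2-fold higher, against 5.89% of all. It was in 3 of 13 primary granule, 2 of 20 late neutrophil, 1 of 16 erythroid and 0 of 9 membrane promoters.

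Transcripts of the granule proteins of neutrophils and their precursors were far lower in Jak2V617F than in Asxl1-/-. All 19 genes tested of the primary granule list were lower, with a median log2 difference of -3.75. That list also holds genes of other proteins, such as the transcription factor gene Gfi1 and the chaperone gene Calr. In the late neutrophil list 23 of 24 genes were lower, with a median of -3.4. Mpo, the peroxidase of azurophil granules (chr11:87793581-87804413), was at 654, 374 and 402 CPM in Jak2V617F and at 8153 and 7838 in Asxl1-/-. That is 16.8-fold lower (log2 difference -4.07 ± 0.28, adjusted p = 1.67e-06), and WT libraries were at 5506 to 6692. Elane, neutrophil elastase, was at 237, 125 and 126 CPM in Jak2V617F and at 3449 and 3109 in Asxl1-/- (-4.33 ± 0.30, adjusted p = 2.25e-06). Prtn3 and Ctsg, the serine proteases stored with it, differed by -3.98 and -4.02 on the log2 scale.

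Genes of the secondary granules and the cytosol of mature neutrophils were lower to a like extent. S100a8, the calprotectin subunit that pairs with S100a9, was at 821, 876 and 349 CPM in Jak2V617F and at 10098 and 11210.4 in Asxl1-/- (15.6-fold lower). Ngp was at 1129, 1232 and 456 CPM against 13255 and 13521, and Camp, the cathelicidin gene, at 332, 404 and 157 against 5294 and 5077. Jak2V617F 3 was the lowest of its group for each of these, and none of its group came near the Asxl1-/- libraries. Lcn2, Ltf and Lyz2 differed by -3.77, -3.44 and -3.98. The summed late neutrophil list took 0.253% to 0.688% of counts in Jak2V617F, 6.09% to 6.35% in Asxl1-/- and 4.27% to 6.7% in WT. In the comparison of libraries with Y-linked reads, 19 of the primary granule genes and 19 of the late neutrophil genes were lower. For none of Mpo, Elane, S100a8, Ngp, Camp and Lcn2 did an alternative setting end the call.

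**Figure D2:**
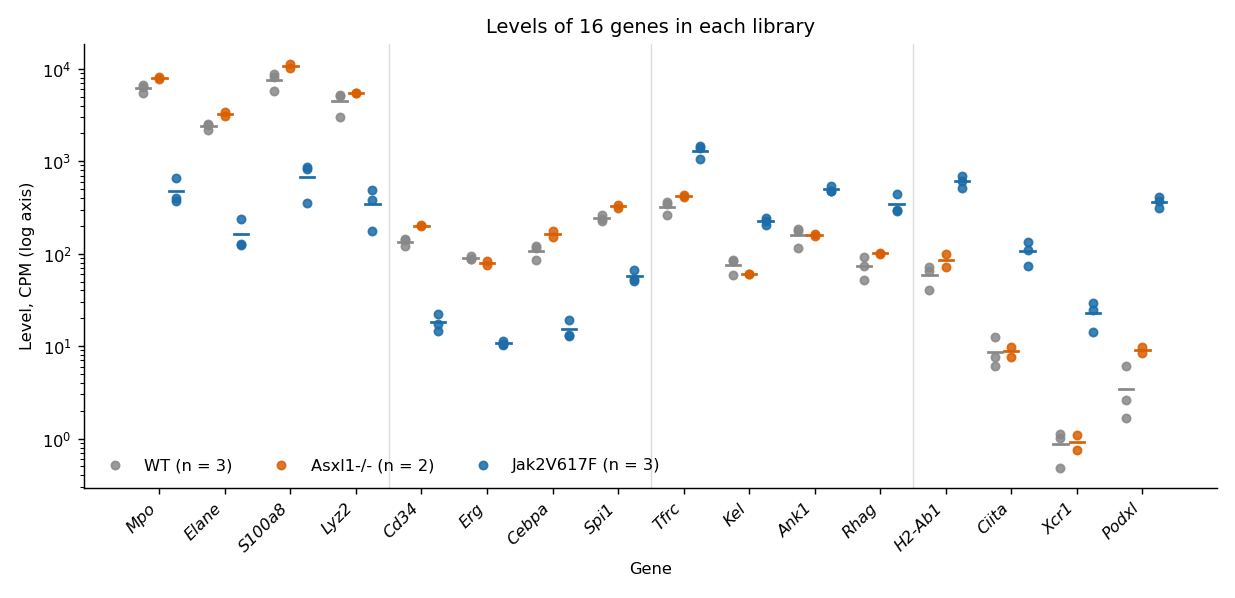
Level in CPM (log axis) of 16 genes in each WT, Asxl1-/- and Jak2V617F library; dots are libraries and short lines group means. From left to right the panels hold neutrophil and monocyte genes, progenitor genes and fate factors, red cell genes, and antigen presentation, dendritic cell and surface genes; Jak2V617F libraries lie below both Asxl1-/- libraries for the first 8 genes and above them for the last 8.

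The transcription factors that install the granulocyte and monocyte fates were lower with their targets. Of 16 such factors, 11 were lower and none higher. Cebpa, which opens the granulocyte-monocyte branch, was at 19.4, 13.2 and 12.8 CPM in Jak2V617F and at 176 and 152 in Asxl1-/- (-3.44 ± 0.28, adjusted p = 9.83e-06). Cebpe, needed for secondary granules, differed by -4.03, Gfi1 by -3.87, Cebpd by -3.68 and Cebpb by -2.95. Spi1, which encodes PU.1, was at 53.8, 66.7 and 50.1 CPM against 335 and 315 (-2.51 ± 0.17). Irf8, a monocyte and dendritic cell factor, was at 100, 166 and 129.8 CPM against 170.3 and 176 and did not pass (adjusted p = 0.112), though it did without Jak2V617F 2 (0.018).

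Other myeloid lineages followed the neutrophil genes. In the monocyte and macrophage list 22 of 28 genes were lower and none higher (median -2.51). Ly6c2, a surface marker of inflammatory monocytes and their precursors, was at 109, 83.6 and 48.5 CPM against 1045 and 1025. Csf1r, the macrophage colony-stimulating factor receptor, was at 29, 48.6 and 19.3 against 105 and 139. Markers of resident marrow macrophages were lower too: Siglec1 was at 1.82, 2.4 and 0.369 CPM against 62.3 and 136 (-6.00 ± 0.89, adjusted p = 0.000795), and C1qa at 10.6, 15.5 and 2.9 against 136 and 231. WT libraries spanned 29.3 to 114 CPM for Siglec1, so that gene also varies within WT. Among 11 eosinophil genes 10 were lower (median -3.91), with Prg2, the major basic protein, at 22.1, 23.9 and 24.5 CPM against 299 and 405.

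Mast cell and basophil genes were lower in 9 of 14 and higher in 1, and 6 were lower among libraries with Y-linked reads. Cpa3, the mast cell carboxypeptidase, was at 4.19, 5.25 and 6.96 CPM in Jak2V617F, at 71.9 and 63.9 in Asxl1-/- and at 27.6 to 28.6 in WT. For this gene both lesions lay apart from WT, Jak2V617F below it (-2.37, adjusted p = 6.45e-07) and Asxl1-/- above it (1.27, adjusted p = 0.00128). Hdc, histidine decarboxylase, was at 29.8, 27.9 and 13.7 CPM against 277 and 284. Il1rl1, the interleukin-33 receptor, was the member that was higher, with a log2 difference of 1.07.

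The red cell programme was higher in Jak2V617F. Of 24 erythroid factors and receptors 20 were higher and 3 lower (median log2 difference 1.12), of 16 red cell membrane genes 13 were higher and 1 lower (median 1.56), and of 22 genes of haem synthesis and iron handling 16 were higher and 4 lower (median 0.82). The summed erythroid list took 1.13% to 1.24% of counts in Jak2V617F, 0.493% to 0.551% in Asxl1-/- and 0.385% to 0.606% in WT. Without Asxl1-/- 2, 11 erythroid and 7 membrane genes stayed higher, and among libraries with Y-linked reads 11 and 11 did. The haem and iron count was 11 in both of these settings. With no filter on low counts 13 erythroid genes were called higher. No member called higher changed direction to a call in any of these settings.

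Among the erythroid receptors, Epor, the erythropoietin receptor that signals through JAK2, was at 204, 156 and 168 CPM in Jak2V617F, at 68.8 and 66.2 in Asxl1-/- and at a mean of 55.1 in WT (1.38 ± 0.24, adjusted p = 0.00101). Tfrc, the transferrin receptor that brings iron into erythroblasts, was at 1054, 1448 and 1387 CPM against 434 and 410.1, which is 3.07-fold higher. Tfr2 differed by 1.26. Among the factors, Tal1 was at 397, 405 and 435 CPM against 183 and 164, Bcl11a at 253, 211 and 241 against 106 and 104, and Sox6 at 36.8, 38.5 and 22.5 against 9.51 and 9.06. Klf1, the erythroid Krüppel-like factor, was at 338, 328 and 357 CPM against 175 and 148 (1.08 ± 0.27, adjusted p = 0.00816), a call lost without Asxl1-/- 2 (0.0718), with a term for sex (0.0581) and among libraries with Y-linked reads (0.0842). The 3 erythroid list members that were lower were Cited2, Nfe2 and Myb, at -2.54, -1.13 and -0.56. Each of these also acts outside the red cell lineage.

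Membrane genes gave a wide separation of the groups. Kel, a blood group endopeptidase, was at 242, 223 and 204 CPM against 60 and 60.7 (1.89 ± 0.25, adjusted p = 0.0002). Rhag, the Rh-associated glycoprotein, was at 447, 300.3 and 290.1 against 102 and 100.1, and Ank1, erythrocyte ankyrin, at 546, 480 and 479.7 against 162 and 154. Slc2a1, a glucose transporter used widely outside red cells, was the 1 member that was lower (-1.50).

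Late markers of haemoglobin-filled cells were less uniform. Slc4a1, the band 3 anion exchanger, was at 255, 474 and 54.9 CPM in Jak2V617F against 32.4 and 26.3, a difference that was not past the threshold without Asxl1-/- 1 (0.11), without Asxl1-/- 2 (0.135), with the 5 libraries fitted alone (0.108), with the replicate block (0.0627) or with no filter (0.0513). Hba-a1, an alpha-globin gene, was at 378, 694 and 95.8 CPM against 73 and 80 (2.35 ± 0.80, adjusted p = 0.0413), and this call was lost in 7 alternative fits, among them those without Asxl1-/- 1 (0.177) and without Jak2V617F 2 (0.0896). Hbb-bs was at 76.6, 194 and 16.4 CPM against 7.41 and 5.64 and did not pass (adjusted p = 0.115). Hba-a1 and Hba-a2 are near-identical copies whose reads the counting could split.

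Haem and iron genes split by role. The erythroid steps were higher, with Fech, which inserts the iron, at 1.27 and the glycine carrier Slc25a38 at 0.95 on the log2 scale. Alas1, the housekeeping form of the first enzyme of the pathway, was at 70, 57.9 and 62.9 CPM against 478 and 425 (-2.83 ± 0.20, adjusted p = 1.74e-06). Slc40a1, the iron exporter ferroportin, was lower at 127, 111 and 112 CPM against 226 and 329. Ftl1 and Hmox1, which store iron and degrade haem in macrophages among other cells, differed by -0.57 and -2.74, and Hmox1 did not pass when sex was a term in the fit (0.0724). The monocyte and macrophage list moved in the same direction as these genes, and its part was not tested.

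**Figure D3:**
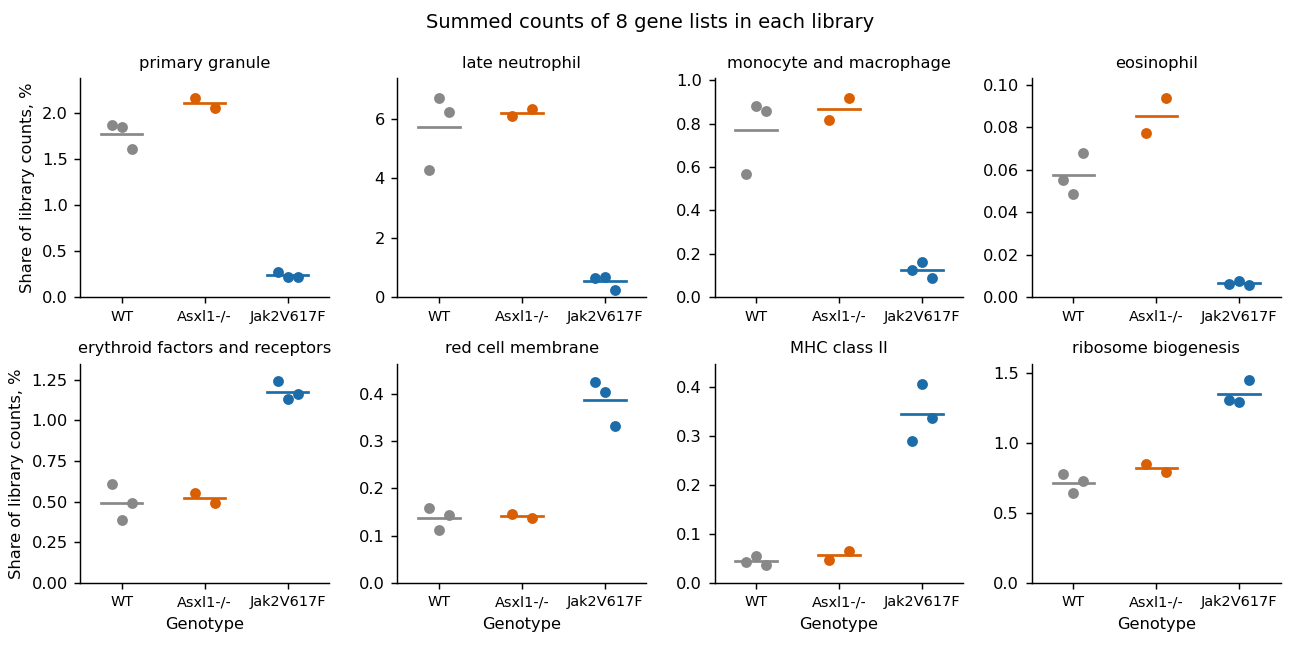
Summed counts of 8 gene lists as a share of all counts of each WT, Asxl1-/- and Jak2V617F library; dots are libraries, short lines are group means and every vertical axis starts at 0. Jak2V617F libraries lie below all others for the 4 myeloid lists and above all others for the 4 lists of the lower row.

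Stem and progenitor genes were mixed but leaned lower. Of 28 genes known from blood stem cells 13 were lower and 5 higher. Cd34, a progenitor surface protein, was at 17.4, 14.6 and 22.1 CPM in Jak2V617F, at 204 and 199 in Asxl1-/- and at 121 to 143 in WT, which is 11.2-fold lower. Erg, an ETS factor needed to keep stem cells, had the smallest adjusted p of the whole comparison. It was at 11.5, 10.5 and 10.2 CPM against 75.1 and 83.4 (-2.88 ± 0.10, adjusted p = 6e-08). Hlf, Meis1 and Hoxa9, factors of stem cells and of leukaemia, differed by -2.77, -1.90 and -1.23. Mllt3, Tal1, Gfi1b, Msi2 and Mycl were the 5 members that were higher, of which Tal1 and Gfi1b are also erythroid factors. Procr, Ly6a and Fgd5, used as stem cell markers, did not pass, at -0.29, -0.49 and -0.59. Of 14 Hox genes and partners 7 were lower and none higher, and 4 were lower without Asxl1-/- 2.

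Megakaryocyte and platelet genes were also lower, in 12 of 23, with Zfpm1, which is shared with the red cell lineage, as the 1 member that was higher. Pf4, platelet factor 4, was at 1.72, 2.16 and 1.9 CPM in Jak2V617F, at 11.7 and 15.8 in Asxl1-/- and at 10.4 to 15.5 in WT. Fli1, an ETS factor of the lineage, was at 15, 18.1 and 11.9 against 92.7 and 86.6. Mmrn1, Treml1 and Itgb3 were lower as well, at -3.25, -2.09 and -1.41, while Gp9, Gp1ba and Vwf did not pass, at -0.68, -0.24 and 0.30.

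Antigen presentation genes were higher in Jak2V617F. Of 12 MHC class II genes 10 were higher and none lower (median 2.54), and the list took 0.291% to 0.408% of counts against 0.0469% to 0.0657% in Asxl1-/-. Cd74, the invariant chain, was at 1017, 1487 and 1173 CPM against 161 and 203, and H2-Ab1 at 514, 688 and 617 against 71.4 and 99.2 (2.83 ± 0.28, adjusted p = 3.05e-05). Ciita, the master activator of these genes, was at 72.8, 135 and 109 CPM against 7.7 and 9.88 (3.59 ± 0.44, adjusted p = 0.000138). Jak2V617F 2 was the highest library for each of them.

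Several dendritic cell genes were higher too. Xcr1, a chemokine receptor of type 1 conventional dendritic cells, was at 14.1, 29.2 and 24.6 CPM against 0.758 and 1.1 (4.59 ± 0.44, adjusted p = 8.67e-06), and Clec9a at 25.7, 41.7 and 29.9 against 2.39 and 1.8. Itgax, which encodes CD11c, was at 56.7, 98.4 and 89.3 against 3.85 and 6.68. Over the whole dendritic cell list 9 of 20 genes were higher and 3 lower. Of the factors of type 1 cells, Batf3 was higher, at 2.97, while Irf8 and Id2 did not pass, at -0.39 and -0.31. Zbtb46, also in the list, was higher at 1.66. Of genes known from plasmacytoid cells, Runx2 and Bst2 were lower, at -1.74 and -1.48, Tcf4 was higher, at 0.40, and Siglech and Ccr9 did not pass, at 0.02 and 0.76. Flt3, the receptor for the dendritic cell growth factor, was at 69.6, 74.4 and 65.6 CPM against 49.8 and 65.4 (adjusted p = 0.238). The summed dendritic cell list made up 0.0598% to 0.0872% of the Jak2V617F counts and 0.049% to 0.0563% of the Asxl1-/- counts, and its part in the MHC class II difference was not tested.

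Lymphoid genes split by stage. Rearrangement and surrogate light chain genes of B and T cell precursors were lower: Rag2 was at 0.107, 0.196 and 0.422 CPM against 6.83 and 11.6, Dntt at 1.77, 5.79 and 5.64 against 94.8 and 157, and Vpreb1 at 0.376, 1.18 and 1.32 against 28.5 and 46.3. Among genes of later B cells, Cr2, the complement receptor of mature B cells, was at 6.33, 33 and 8.23 CPM against 1.11 and 1.69, a call just missed without Asxl1-/- 1 (0.0504). Ighm was at 3233, 3568 and 1023 CPM against 498 and 667 (2.16 ± 0.65, adjusted p = 0.024), a call lost when either Asxl1-/- library, Jak2V617F 1 or Jak2V617F 2 was left out. Of 26 B lymphoid genes 10 were lower and 4 higher, and 0 were called higher without Asxl1-/- 1. Among libraries with Y-linked reads 6 were lower. Of 26 T and NK genes 8 were higher (5 without Asxl1-/- 1) and 2 lower, with Cd8a at 8.11, 30.6 and 23.8 CPM against 0.467 and 1.16, and Cd3e at 1.13, 2.06 and 0.475 against 0.233 and 0.116, which did not pass (0.0562) but did with DESeq2 (0.0481) and in 4 other settings. Cd8a is also made by some dendritic cells. Nkg7, the member with the largest fall, at 14.5, 15.5 and 17.4 against 234 and 229.7, stood in the primary granule list as well.

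**Figure D4:**
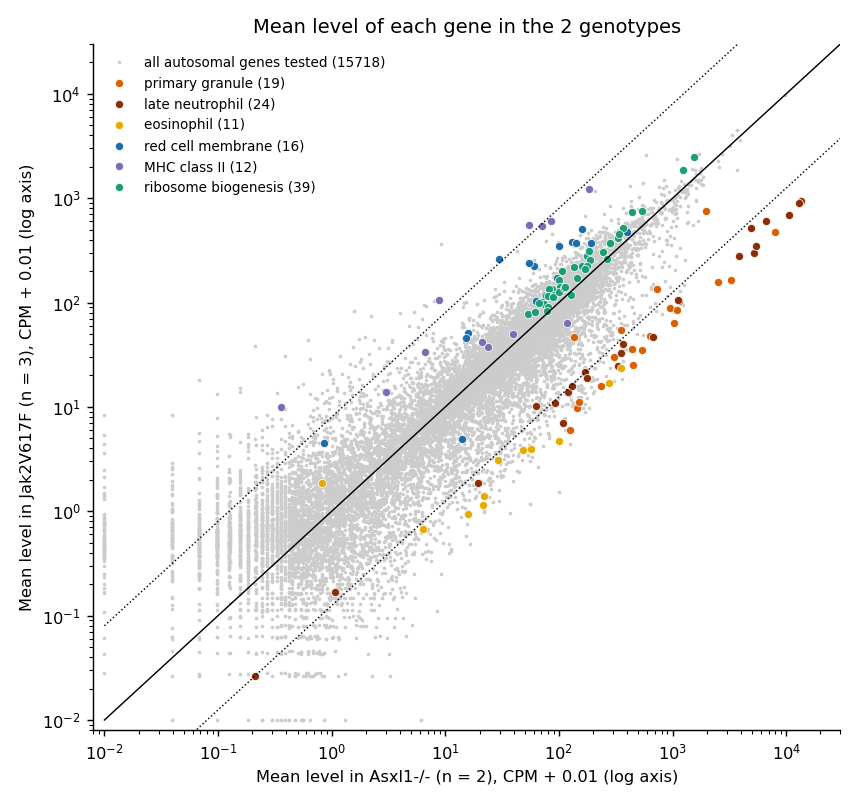
Mean level of each autosomal gene tested in Asxl1-/- (n = 2, horizontal) and Jak2V617F (n = 3, vertical), CPM + 0.01 on log axes; the solid line marks equal levels and the dotted lines 8-fold differences. Most primary granule, late neutrophil and eosinophil genes lie near or below the lower dotted line, red cell membrane and MHC class II genes mostly above the solid line, and ribosome biogenesis genes close above it.

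The kinase's own pathway did not move as a block. Of 11 JAK kinases and STAT factors 3 were higher and 5 lower, and without Asxl1-/- 2 or among libraries with Y-linked reads 0 were higher. Stat5a was at 201, 148 and 171 CPM against 120.3 and 118 (0.54 ± 0.14, adjusted p = 0.00711), a call lost without Asxl1-/- 2 (0.0511) and among libraries with Y-linked reads (0.145), and Stat5b was at 181, 144 and 166 against 158 and 164 (adjusted p = 0.855). Stat3 was at 84.7, 90.7 and 75.3 CPM against 185 and 200.2, and Stat4 and Jak3 differed by -2.34 and -1.23. Among 33 feedback genes and targets 4 were higher and 11 lower. The STAT5 target genes Cish and Socs2, which encode inhibitors of cytokine signalling, were higher. Cish was at 12, 9.32 and 11.8 CPM against 2.92 and 3.95 (1.68 ± 0.30, adjusted p = 0.000777), and Socs2 at 9.12, 8.73 and 9.02 against 2.51 and 2.67 (1.79 ± 0.29, adjusted p = 0.00038). For Socs2 the Asxl1-/- libraries also lay below WT, which was at 4.23 to 6.32 CPM (Asxl1-/- minus WT -1.01, adjusted p = 0.0265). Socs1, Socs3, Pim1 and Myc did not pass, at -0.19, 0.04, -0.25 and -0.02.

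Of 29 cytokine receptors 15 were lower and 4 higher, the latter being Epor, Il1rl1, Il10ra and Il27ra. Csf3r, the granulocyte colony-stimulating factor receptor, differed by -2.85, and Csf2ra by -1.75. Tnfrsf1a and Tnfrsf1b, both receptors for TNF, were at 25.8, 28.7 and 20.6 CPM against 148 and 155, and at 25.8, 31.2 and 24.3 against 99.8 and 103. Tnf itself was at 2.84, 2.55 and 1.9 CPM against 11.1 and 14.2 (-2.38 ± 0.36, adjusted p = 0.000251). Traf1, a TNF receptor adaptor, went the other way at 18.2, 32.4 and 30.3 CPM against 1.46 and 2.09.

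Interferon-stimulated genes were lower in 27 of 40 and higher in none (median -1.72), but this count rested on the libraries compared. Oasl2 was at 2.36, 5 and 5.28 CPM in Jak2V617F, at 53.4 and 92.1 in Asxl1-/- and at 14, 30.4 and 163 in WT, so WT itself spanned the Asxl1-/- values. Its call (adjusted p = 0.00995) was lost without Asxl1-/- 2 (0.0509), with a term for sex (0.114) and among libraries with Y-linked reads (0.147). The count was 10 without Asxl1-/- 2, 3 with a term for sex in the fit and 2 among libraries with Y-linked reads. Gbp3 was among the steadier members, at 8.96, 7.36 and 10.1 CPM against 30.6 and 32.8 (-1.85 ± 0.23, adjusted p = 6.42e-05).

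Effector and signalling genes of myeloid cells were lower with the granule genes. Of 7 NADPH oxidase genes, which make the respiratory burst, 6 were lower, with the membrane subunit Cyba at 58, 70.6 and 53.3 CPM against 376 and 372 (-2.62 ± 0.14, adjusted p = 2.03e-07) and the GTPase Rac2 at 133, 164 and 125 against 949 and 934. Of 31 innate sensors and interleukin-1 genes 19 were lower and 4 higher. Casp1, the inflammasome protease, was at 8.05, 8.93 and 7.49 CPM against 38.4 and 40.2, and its adaptor gene Pycard at 9.45, 11.9 and 11.9 against 32.6 and 33.2. Id1, a target of BMP signals, was at 1.88, 2.11 and 1.58 CPM against 21.2 and 18.8 (-3.42 ± 0.34, adjusted p = 1.35e-05), and 17 of 24 Id and TGF-beta or BMP genes were lower, a count that was 7 among libraries with Y-linked reads. Of 29 homing and adhesion genes 15 were lower and 5 higher. Itgb2, the leukocyte integrin beta chain, was at 104, 154 and 99.9 CPM against 513 and 553, and Cd9 at 22.9, 28.1 and 18.4 against 128 and 127. Among 16 fibrosis and secreted factors 7 were lower and 2 higher, with Vim, the filament protein vimentin, at 92.2, 115 and 89.1 CPM against 688 and 709.8, and Vegfa at 18.2, 23.8 and 19.3 against 74.9 and 76.2.

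Other genes mutated in myeloid neoplasms differed in both directions, beside shares of 22.4% higher and 26% lower over all autosomal genes tested. Of 30 tested 7 were higher and 10 lower, and without Asxl1-/- 2 the count of higher genes was 2. Calr, a chaperone gene of the endoplasmic reticulum, was at 620.3, 795 and 868 CPM in Jak2V617F, at 2116 and 1834 in Asxl1-/- and at 1164 to 1431 in WT (-1.38 ± 0.17, adjusted p = 6.42e-05). Idh1, the cytosolic isocitrate dehydrogenase, was at 17.2, 16.8 and 16.1 CPM against 95.6 and 95.6 (-2.52 ± 0.10, adjusted p = 1.08e-07), with WT at 79.7 to 87.3. Tet2 was at 37.9, 34.5 and 29.2 CPM against 28.3 and 32.7, so the groups overlapped (adjusted p = 0.406), and WT lay higher at 53.7 to 69.1. Cbl, a ubiquitin ligase for cytokine receptors, was at 194, 247 and 201 against 228 and 234 (adjusted p = 0.463), with WT at 361 to 441.

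Stress and early response genes showed no common direction, and their counts stand beside 22.4% higher and 26% lower over all autosomal genes tested. Of 19 heat shock genes 6 were higher and 4 lower: Hspd1, a mitochondrial chaperone, was at 1241, 1552 and 1685 CPM against 901 and 791, and Hspa5, the chaperone of the endoplasmic reticulum, at 402, 641 and 567 against 1149 and 984. Of 24 p53 targets 8 were higher and 5 lower. Zmat3 was at 22.9, 25.1 and 33.1 CPM against 5.6 and 4.59, and Perp, a membrane protein gene, at 0.268, 0.196 and 0.264 against 4.9 and 5.58. Of 36 immediate early genes 11 were lower and 3 higher. Ier2 was at 48.7, 46 and 54.3 CPM against 133 and 149, and Jun at 29.8, 47 and 48 against 176 and 226, which did not pass (adjusted p = 0.0521), with WT between 8.79 and 132. Jun did pass with the stricter filter (0.0423), with the 5 libraries fitted alone (0.00112) and with DESeq2 (0.0202). Of 75 oxidative phosphorylation genes 14 were lower and 3 higher, both shares being under those of all genes. Of 27 cholesterol genes 7 were higher and 3 lower, and none of the higher calls stood among libraries with Y-linked reads.

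The chromatin machinery of the Asxl1 lesion moved little next to the lineage genes. Its counts stand beside 22.4% higher and 26% lower over all autosomal genes tested. Of 9 members of the ASXL and BAP1 group 3 were higher and none lower: Asxl1 itself, its paralogue Asxl2 and the ubiquitin ligase Ube2o. Asxl2 was at 136, 138 and 138 CPM in Jak2V617F, at 72.5 and 80.1 in Asxl1-/- and at 106 to 108 in WT, and Asxl1-/- was below WT (-0.49, adjusted p = 0.00365). Bap1 was at 135, 130.3 and 133 against 125 and 127 (adjusted p = 0.448). Among 12 Polycomb repressive complex 2 genes 2 were higher and 4 lower, of which 0 and 1 were called among libraries with Y-linked reads. The largest of these differences that kept its call in every setting was Phf19, at 7.68, 8.34 and 9.49 CPM against 17.3 and 16.6. Among 21 genes of Polycomb repressive complex 1, 6 were higher and 7 lower, and 4 were lower among libraries with Y-linked reads. Phc3 was at 74.9, 86.4 and 81.7 CPM in Jak2V617F, at 37.9 and 48.6 in Asxl1-/- and at 84.4 to 92.8 in WT, so here Asxl1-/- stood apart.

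Growth genes showed smaller, more even differences. Of 39 ribosome biogenesis genes 33 were higher and none lower, with a median log2 difference of only 0.43. Utp20, a nucleolar processing factor, was at 199, 196 and 211 CPM against 107 and 104 (0.93 ± 0.09, adjusted p = 1.29e-05), and Polr1a, the largest subunit of RNA polymerase I, at 223, 209 and 229.7 against 136 and 136. The count fell to 13 without Asxl1-/- 2 and to 11 among libraries with Y-linked reads. The cytosolic ribosomal proteins did not follow, with 1 of 79 higher and 10 lower, a count that was 1 without Asxl1-/- 1 and 30 when the 5 libraries were fitted alone. Of 36 replication genes 10 were higher and 2 lower, and of 29 mitosis genes 4 were higher and 8 lower. Over all autosomal genes tested the shares were 22.4% higher and 26% lower. The count of higher replication genes was 6 without Asxl1-/- 2 and 5 among libraries with Y-linked reads, and with DESeq2 it was 16. Mki67, the proliferation marker, was at 1253, 1344 and 1228 CPM in Jak2V617F, at 769 and 748 in Asxl1-/- and at 1127 to 1355 in WT, while Cdk1 went the other way at 122, 125 and 147 against 182 and 177.

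Glycolysis split by isoform. Of 24 genes 15 were lower and 5 higher. Pkm, the pyruvate kinase of most dividing cells, was at 157, 167 and 113 CPM against 1266 and 1271, which is 8.7-fold lower, and Hk3, a myeloid hexokinase, at 60.1, 52.6 and 34.8 against 542 and 553. Pklr and Bpgm, the pyruvate kinase and the bisphosphoglycerate enzyme of red cells, were higher by 1.53 and 0.56. Ldha did not pass, at -0.02, while Ldhb differed by -3.81. Gapdh has many processed copies whose reads the counting could split, and its value is uncertain.

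Survival genes were also divided. Bcl2 was at 17.4, 16.3 and 12.8 CPM against 37.4 and 36.3, and the death-promoting Bcl2l11, which encodes BIM, at 86.1, 70.8 and 71.7 against 24.3 and 29.2 (1.51 ± 0.16, adjusted p = 1.91e-05). Pmaip1, which encodes NOXA, was at 11.2, 25.9 and 25.9 against 2.57 and 3.95. Bcl2l1, whose BCL-XL protein protects erythroblasts, was lower by 0.79 on the log2 scale. Of the 20 Bcl2 family genes 7 were higher and 7 lower, and 4 were lower when either Asxl1-/- library was left out.

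The genes with the largest fold differences, among protein-coding genes of at least 5 CPM in the higher group, were mostly of low level in the other genotype. Adam23, a membrane disintegrin-like protein (chr1:63445891-63596276), was at 21.2, 45.8 and 49.2 CPM in Jak2V617F and at 0.0583 and 0.349 in Asxl1-/- (7.52 ± 0.72, adjusted p = 1.81e-05). C2cd4a was at 38.6, 38.3 and 53.3 CPM against 0.758 and 0.465 (6.13 ± 0.33, adjusted p = 1.84e-07). Podxl, which encodes podocalyxin, a sialomucin of the CD34 family, was at 413, 309.7 and 368 against 9.74 and 8.37, which is 40.1-fold higher. It therefore ran opposite to Cd34. Itga4, an integrin that binds VCAM1 and fibronectin, was 2-fold higher, at 518, 446 and 459 CPM against 231 and 244. In the other direction, Cxcl12, the stromal chemokine that holds stem cells in the marrow, was at 0.161, 0 and 0.0527 CPM against 4.96 and 5.11, and Chp2 at 0.0537, 0.245 and 0 against 6.01 and 10.9. Of 15 stroma and endothelium genes 10 were lower and 5 did not pass. That list took 0.00532% to 0.006% of counts against 0.0132% to 0.0143%. Of its tested members, Pecam1 and Runx2 had the highest means in Asxl1-/-, at 64 and 32.3 CPM, against 18.6 and 9.67 in Jak2V617F. The list's share therefore says little about Cxcl12, and the part of stromal cells was not tested. Among annotated lincRNA genes the largest differences were Gpr141b, higher by 4.41, and Gm36161, lower with -3.75.

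The position of WT describes which genotype's libraries lie apart from it. Of 7602 called genes, WT libraries overlapped Asxl1-/- but not Jak2V617F in 2938 (38.6%) and overlapped Jak2V617F but not Asxl1-/- in 1421 (18.7%). In 1087 genes WT lay between a higher Asxl1-/- and a lower Jak2V617F. Against WT, 3842 genes were higher and 4604 lower in Jak2V617F (24.4% and 29.3%), and 1777 higher and 1772 lower in Asxl1-/- (11.3% and 11.3%). These comparisons share the WT libraries, and Asxl1-/- has 1 library fewer. Both Asxl1-/- libraries had Y-linked reads and no WT library did, so genotype and sex cannot be told apart between these groups.

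For some genes the Asxl1-/- libraries lay apart from WT while the Jak2V617F mean stayed near it. Chosen by their values, 60 called protein-coding genes of at least 5 CPM were at least 2-fold lower in Asxl1-/- than in Jak2V617F, with both Asxl1-/- libraries outside the WT range and the Jak2V617F mean within 0.5 log2 units of WT, and 24 were at least 2-fold higher in Asxl1-/- by the same criteria. The difference from WT was not held to 2-fold. These counts are descriptions, since the genes were picked on the same contrast. Ubn2, a chaperone-complex subunit for histone H3.3, was at 131, 164 and 137 CPM in Jak2V617F, 40 and 44 in Asxl1-/- and 116 to 120.5 in WT. Zbtb37 was at 39.8, 34.1 and 33.6 CPM, 11.6 and 9.3, and 35.9 to 45.8. Kmt2d, a histone H3 lysine 4 methyltransferase, was at 271, 428 and 298 CPM against 144 and 162, with a WT mean of 390.2, and its paralogue Kmt2c at 141, 215 and 159.6 against 74.3 and 80.1. Ctsd, the lysosomal protease cathepsin D, was higher in Asxl1-/-, at 361 and 472 CPM in Asxl1-/-, 171, 163 and 134 in Jak2V617F and 183 to 248 in WT.

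Gene length and transcript class moved with the Asxl1-/- libraries. Genes in the longest quartile took 27.6% and 28.2% of autosomal counts in Asxl1-/-, 33.4% to 34.1% in Jak2V617F and 32.7% to 34.2% in WT, and those in the shortest quartile took 19.3% and 19.2%, 13.3% to 13.9% and 15.7% to 16.5%. In the longest quartile 32% of genes were higher in Jak2V617F and 25.4% lower, against 15.7% and 21.7% in the shortest. At 2-fold or more, 8.73% of the longest were higher and 14.5% lower, against 13.8% and 14.8% of the shortest. TEC genes, an annotation class of mostly single-exon transcripts whose coding status is unsettled, were higher in 40.9% and lower in 2.83% of 530 tested, and antisense genes in 28.1% and 9.92% of 524. TEC genes took 0.04% and 0.0446% of counts in Asxl1-/-, 0.0834% to 0.102% in Jak2V617F and 0.104% to 0.122% in WT. Ubn2, Zbtb37, Kmt2c and Kmt2d all lie in the longest quartile (at least 5993 bases), and the part of length, RNA quality or library preparation in their values was not tested.

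**Figure D5:**
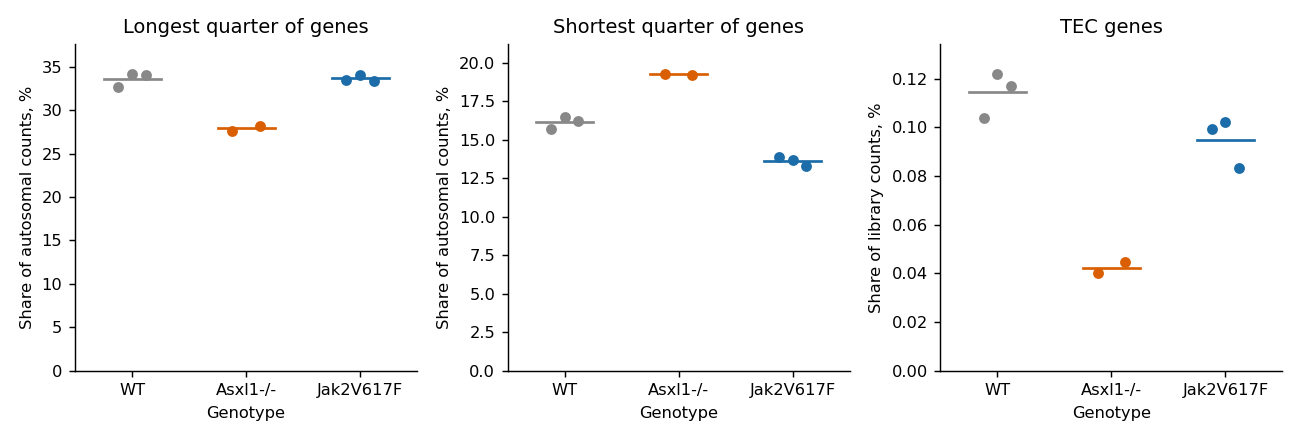
Share of autosomal counts in the longest and shortest quartile of genes and share of all counts in TEC genes, for each WT, Asxl1-/- and Jak2V617F library; dots are libraries, short lines group means, and axes start at 0. Both Asxl1-/- libraries lie below all others for long and TEC genes and above all others for short genes.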

How the data were processed

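RNA-seq of c-kit-enriched marrow was analysed from the authors' deposited raw read counts per gene (mm10, with HISAT2 2.0.5 and featureCounts 1.5.0-p3 among the tools in the submitters' processing notes). The sources used here do not give the strand setting or the treatment of reads with several matches, so overlapping, antisense and copied genes are uncertain. Counts were fitted with edgeR 4.0.16 (R 4.3.3): TMM scaling, filterByExpr, a robust quasi-likelihood fit of genotype over all 11 RNA libraries, the contrast Jak2V617F minus Asxl1-/-, and Benjamini-Hochberg adjustment over all 16262 genes in the fit. Calls needed an adjusted p under 0.05. The standard error is the log2 difference divided by the root of the F value. CPM uses TMM-scaled library sizes. Depth of 17786701 to 19196283 counts per compared library leaves genes under about 1 CPM imprecise. With 3 against 2 libraries an exact permutation test of a single value cannot give a two-sided p below 0.1, so none was used.

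Genes were named by rule: the 8 protein-coding genes per direction with the largest fold (at least 5 CPM in the higher group, at least 3 counts in the lower, no overlap), the 6 per direction with the largest CPM difference, up to 4 per list by smallest adjusted p, up to 3 lincRNA genes per direction, and Asxl1 and Jak2. Genes that were named outside this rule, among them Elane, Epor, Klf1, Rhag, Ank1, Ciita, Cish, Socs2, Stat5a, Kit, Pf4, Csf1r, Tal1, the globins, every list member named as not having passed, and Ubn2, Zbtb37, Kmt2c, Kmt2d and Ctsd, were chosen after their values were seen. The members and lists were chosen with earlier results of these data known. Promoters are RefSeq's on GRCm38.p6, matched by symbol for 9509 genes. Alternatives were DESeq2 1.42.0, median-of-ratios scaling, other filters, fewer libraries or genes in the fit, a replicate block, a term for sex, and each library left out. ATAC-seq and histone mark samples were not analysed here.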

Additional observations from a re-analysis of the deposited data

Results flagged for a closer look

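Reads on the Y-linked genes Ddx3y, Uty, Kdm5d and Eif2s3y, which lie outside the autosomal comparison, summed to 263 CPM in Jak2V617F 2, 176 CPM in Asxl1-/- 1 and 178.9 CPM in Asxl1-/- 2, and to 0 in all other RNA libraries, the WT libraries included. Xist was at 0 to 0.2943 CPM in those 3 libraries and at 1390 CPM or more in the others.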

How the results depend on the processing

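The 3523 genes higher in Jak2V617F became 2325 with a term for sex in the fit and 2293 among libraries with Y-linked reads, and 2141 to 3268 when each library was left out, with 2154 without Asxl1-/- 1 and 2141 without Asxl1-/- 2. The 4079 lower genes became 2886, 2930 and 3021 to 3754. Leaving an Asxl1-/- library out assumes that the lone library varies like the other groups. Other scalings, filters, fits and DESeq2 gave 3175 to 3887 higher and 3873 to 4014 lower, and no setting called a gene in the opposite direction. The share of called genes that were higher was 46.3% and ranged from 39.6% to 49.7%. Median-of-ratios scaling shifted all log2 differences by 0.042. Of 256 named genes followed through the settings, 235 passed the threshold and 196 of these did in every setting. The replicate block gave 3240 higher and 3932 lower genes. Only numbers 1 and 2 are shared by both groups, with correlations of 0.036 and 0.17 between same-numbered libraries, so the pairing rests on a number alone. Both genotypes' sex makeup, and length with the Asxl1-/- libraries, are uneven, and with 2 Asxl1-/- libraries genes near the threshold depend on either.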
